A study of Mus musculus with 6 samples.

Results

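The mRNA of 33 adhesion genes was compared between regulatory T cells (Treg) of the liver and of the spleen. The genes encode 17 integrin alpha chains, 8 integrin beta chains, the endothelial selectins Sele and Selp, the selectin ligand Selplg, the vascular ligands Icam1, Icam2, Vcam1 and Madcam1, and the hyaluronan receptor Cd44. They were chosen by name, all 33 were found, and they are 33 of the 38854 genes with a symbol of their own in the deposited table. Where a symbol had several rows, the brightest by its mean over the 6 arrays was used. The study hybridised RNA of Treg from Foxp3-GFP mice, in which a fluorescent reporter marks the transcription factor that defines Treg, with 3 liver arrays (numbered 2, 3 and 7) and 3 spleen arrays (4, 5 and 6). Every mouse, of liver and spleen alike, had been injected with interleukin-2 bound to an anti-interleukin-2 antibody on 3 days, followed by a pause of 3 days. There was no untreated group, so the arrays describe Treg after expansion. The labels used here give no age, sex or strain, and do not say whether animals were pooled or whether a liver and a spleen array shared an animal. The p-values therefore rest on the scatter among arrays, and part or all of that scatter may be technical.

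Integrins are pairs of an alpha and a beta chain that bind matrix proteins or receptors on other cells, and each alpha chain has its own set of beta partners. On T cells the β2 integrins bind ICAM proteins, α4β1 binds VCAM-1, α4β7 binds MAdCAM-1 of gut vessels, αEβ7 binds E-cadherin of epithelia, and α1β1 and α2β1 bind collagens. Selectins slow leukocytes on the vessel wall through glycoprotein ligands such as PSGL-1, the product of Selplg, and integrins then arrest them.

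Values are log2 signals as the authors deposited them, and a difference of 1 is a 2-fold difference. The array medians over all rows lay between 5.68 and 5.90, with spleen array 5 the highest. Each array carries 23 background rows, which hold probes without a target and are graded by base composition. Their mean was 4.55 on spleen array 5 and 4.09 to 4.34 on the other 5 arrays. A value was called above background where it exceeded the 95th percentile of these rows on its array, which was 7.70 on spleen array 5 and 6.98 to 7.23 on the others. This limit is set by the probes richest in G and C, and the base composition of the members' probes is not given in the sources used here. Of the 33 genes 15 were above the limit on all 6 arrays, Icam2 on 4 and 17 on none. As a check of the label, the Treg markers Foxp3 (9.47 ± 0.14 in liver and 9.49 ± 0.09 in spleen), Il2ra (11.34 ± 0.05 and 11.31 ± 0.11) and Cd4 (10.34 ± 0.15 and 10.25 ± 0.04) were read, each as the mean and SD of 3 arrays and above the limit on every array. They belong to a list of 11 Treg markers, all above the limit on every array. Of that list Folr4, at -0.27, was lower on every liver array than on any spleen array (3.09% of all genes were), and the groups of the others overlapped.

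Itga1 and Itga2, the collagen-binding chains, were the adhesion genes with the largest excess in liver Treg, at 1.80-fold and 1.55-fold, and Vcam1 was the one with the largest excess in spleen Treg, at 1.45-fold. After Benjamini-Hochberg adjustment of limma's p-values over all genes, none of the 33 passed the threshold of 0.05, and 0.0206% of all genes did. At an unadjusted limma p under 0.05 there were 3 of 33, namely Itga1, Itga2 and Vcam1, against 3.77% of all genes. The liver and spleen arrays did not overlap in 6 of 33 genes, against 6.19% of all genes. All liver arrays lay above all spleen arrays in Itga1, Itga2, Itga4 and Icam1 (3.11% of all genes), and below them in Itga9 and Vcam1 (3.09% of all genes). The median difference over the 33 genes was 0.01 on the log2 scale, beside -0.02 over all genes, with 17 genes above 0 and 16 below. The other 30 genes, with an unadjusted p above the threshold, differed by -0.25 to 0.26.

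**Figure D1:**
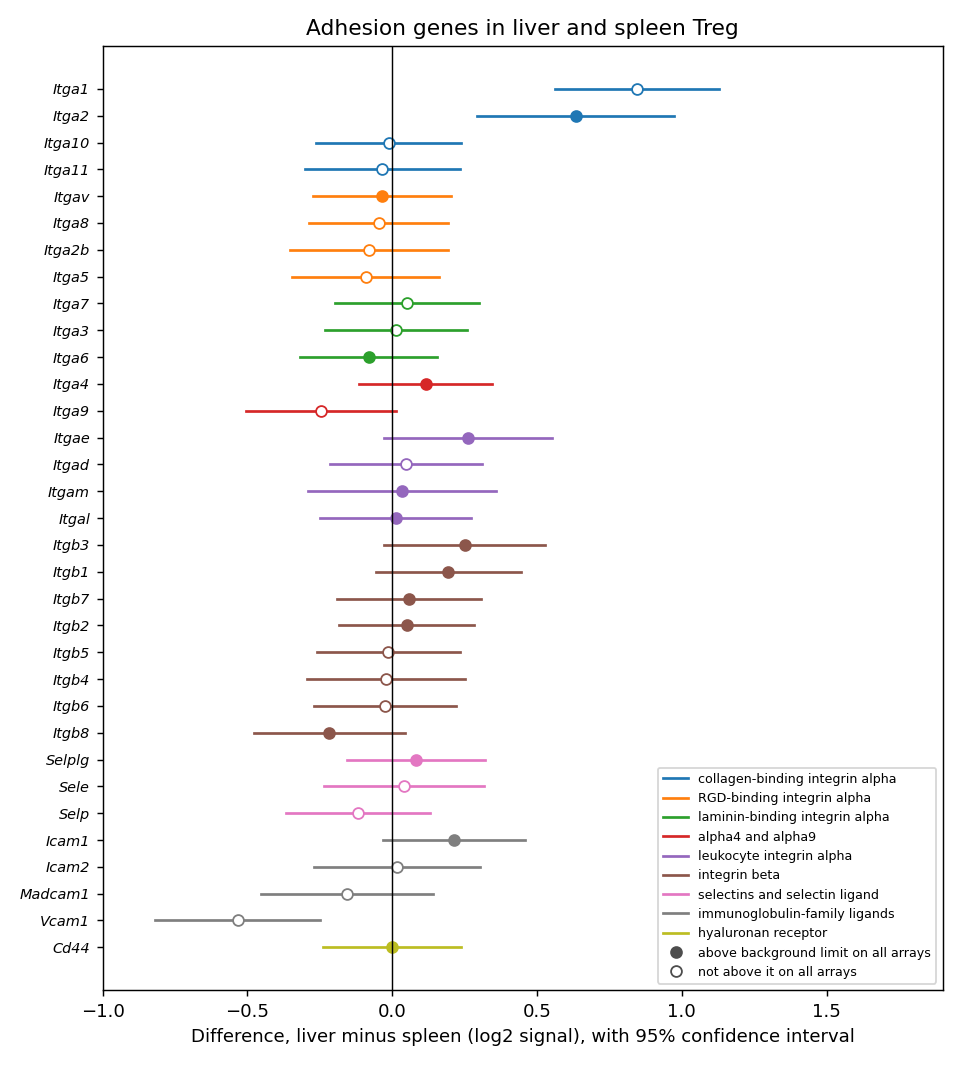
Difference between the liver and spleen means of each gene (horizontal axis, log2 signal, 3 arrays per organ), with the limma 95% confidence interval as a line and the gene's role as a colour. Itga1 at 0.85 and Itga2 at 0.63 lie to the right and Vcam1 at -0.53 to the left, while the intervals of the other 30 genes include 0.

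Among the 4 collagen-binding alpha chains, every liver array lay above every spleen array in Itga1 and Itga2, and the groups overlapped in Itga10 and Itga11. Itga1 encodes the alpha chain of α1β1, a collagen receptor also known as a marker of tissue-resident lymphocytes. Its transcript cluster, TC1300002717.mm.1, read 6.56, 6.60 and 6.32 on liver arrays 2, 3 and 7 and 5.81, 5.69 and 5.44 on spleen arrays 4, 5 and 6. The lowest liver array stood above the highest spleen array, and the gene was below the background limit on all 6 arrays while above the mean of the background rows on all 6. The log2 difference was 0.85 (SE 0.13, 95% confidence interval 0.56 to 1.13), with a limma p of 2.72e-05 that ranked 13 among all genes and an adjusted p of 0.0695. With 1 array left out the difference ran from 0.74 to 0.93. Its limma adjusted p was 0.0438 without spleen array 4 and above the threshold in the other 5 such fits, from 0.0534 without liver array 7 to 0.522 without spleen array 5.

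Itga2 encodes the alpha chain of α2β1, the second collagen receptor of lymphocytes and the antigen of a common NK cell antibody in mice. Its cluster, TC1300002715.mm.1, read 8.89, 8.93 and 8.39 on liver arrays 2, 3 and 7 and 8.11, 7.91 and 8.30 on spleen arrays 4, 5 and 6, above the background limit throughout. Liver arrays 2 and 3 were far above every spleen array, and liver array 7 was above spleen array 6 by a small margin. The difference was 0.63 (SE 0.16, interval 0.29 to 0.97, limma adjusted p = 0.365), and 0.81 without liver array 7. Itga10 differed by -0.01 and Itga11 by -0.03, both below the background limit on every array. These are collagen receptors known from cartilage and from fibroblasts.

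Itga1 and Itga2 are neighbouring protein-coding genes on mouse chromosome 13 and are read from the same strand. Their promoters are shown because these members had the largest liver excess and adjoin each other. They are the 250 bases before each RefSeq gene start in GRCm38.p6, at chr13:115101965-115102214 for Itga1 and chr13:114932101-114932350 for Itga2, both on the minus strand, written 5′ to 3′, and capitals mark the longest word that they share.
Itga1: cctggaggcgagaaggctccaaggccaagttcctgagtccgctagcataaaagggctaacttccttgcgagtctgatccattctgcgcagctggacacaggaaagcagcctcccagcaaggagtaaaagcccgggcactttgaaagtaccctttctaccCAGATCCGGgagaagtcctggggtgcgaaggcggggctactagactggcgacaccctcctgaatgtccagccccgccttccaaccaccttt
Itga2: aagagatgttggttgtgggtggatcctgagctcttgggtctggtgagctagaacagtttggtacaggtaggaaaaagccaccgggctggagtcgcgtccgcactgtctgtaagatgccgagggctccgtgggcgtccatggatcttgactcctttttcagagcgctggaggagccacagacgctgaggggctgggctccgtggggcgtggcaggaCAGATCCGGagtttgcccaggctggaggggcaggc
The shared word, CAGATCCGG, has 9 bases, starts 91 bases before the Itga1 start and 35 bases before the Itga2 start, and is found on either strand in 46 of 32851 promoter windows of this length (0.140%). It was found by comparing the letters of these windows and is a description of them, not a binding site. Neither window held the STAT element TTCNNNGAA, the T-box half-site TCACAC, the Runx motif TGTGGT or the GC box GGGCGG on either strand. None of these motifs contains another, though matches may share bases. Of the 22 adhesion genes with a promoter in the RefSeq table, 3 held the STAT element, 2 the T-box half-site, 2 the Runx motif and 7 the GC box, beside 7.02%, 12.3%, 14.05% and 32.7% of all windows. Icam1 was among the genes with the STAT element and with the GC box, and Itga4 among those with the T-box half-site, the Runx motif and the GC box.

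The genes around this pair were read for comparison. In the RefSeq order of protein-coding genes on chromosome 13, Mocs2, an enzyme of molybdenum cofactor synthesis, lies next to Itga2 and differed by 0.14 with overlapping groups. Pelo lies inside Itga1 and had no row of its own here. Beyond them Fst differed by -0.05, Ndufs4 by 0.06 and Isl1 by -0.14, each with overlapping groups. Parp8, further along on the Itga1 side, lay lower in liver on every array, at -0.50 (SE 0.14, limma adjusted p = 0.526).

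Itga1 and Itga2 are also carried by NK cells and ILC1, innate lymphocytes that are frequent in liver, so the marker genes of those cells are given here. Over 12 NK cell and ILC1 markers the mean signal was 6.75 to 7.32 on the liver arrays and 5.96 to 6.42 on the spleen arrays. Of these markers 8 lay above on every liver array (3.11% of all genes) and none below. Only Eomes of this list went the other way, at -0.12. Of the 12 markers 5 (Ncr1, Klre1, Klrk1, Eomes and Prf1) were not above the background limit on any array. Over 12 dendritic cell markers the mean was 6.67 to 7.19 in liver and 6.26 to 6.54 in spleen. Of these markers 9 lay above on every liver array (3.11% of all genes) and 7 were not above the limit on any array. Only Zbtb46 of the dendritic cell list went the other way, at -0.06. Over 6 CD8 T cell markers the mean was 7.79 to 7.96 in liver and 6.97 to 7.35 in spleen, and Klrc1 is in both this list and the NK cell list. Klrc1, at 1.56 (limma adjusted p = 0.0305), and Ccl5 of the CD8 list, at 0.92 (limma adjusted p = 0.0497), passed the adjusted threshold, as did 0.0206% of all genes. Crtam of the CD8 list went the other way at -0.27, and Crtam and Gzmk were not above the background limit on any array. Liver array 7 was the lowest liver array in Itga1, in Itga2 and in the NK cell, dendritic cell and CD8 T cell means. It was also the lowest liver array in 52.2% of all genes, and in 78.5% of all genes above the background limit on every array. In spleen, array 6 was the lowest array in Itga1 and in the same 3 means but the highest in Itga2. In these bulk samples it cannot be told which cells, Treg included, carried these transcripts. A larger share of those cells and more RNA per cell cannot be told apart either. The part of NK cells, ILC1, dendritic cells and CD8 T cells in the Itga1 and Itga2 differences was not tested.

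**Figure D2:**
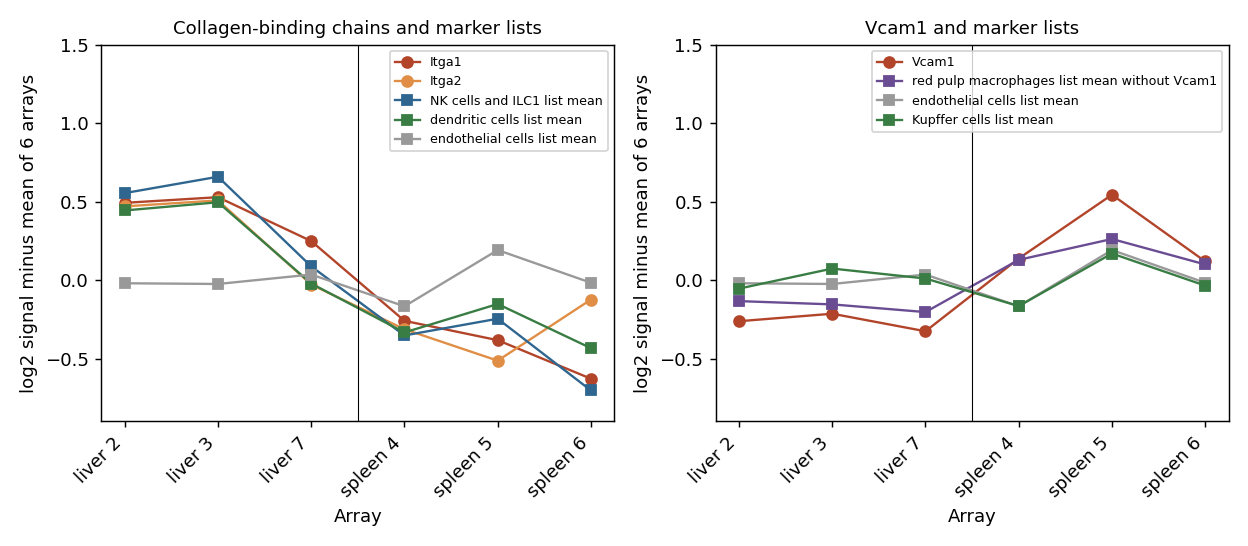
Signal on each of the 6 arrays after subtraction of the mean over all 6 (vertical axis, log2), for Itga1, Itga2 and marker lists in the left panel and for Vcam1 and marker lists in the right panel. Itga1 and Itga2 lie highest on liver arrays 2 and 3, as do the NK cell and dendritic cell means, and Vcam1 and the red pulp macrophage mean lie higher on every spleen array than on any liver array.

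Itgb1, the common beta chain that pairs with α1, α2, α4 and α6, was 10.52, 10.49 and 10.27 on liver arrays 2, 3 and 7 and 10.31, 10.16 and 10.24 on spleen arrays 4, 5 and 6. Liver array 7 lay inside the spleen range, and the difference was 0.19 (interval -0.06 to 0.44). On the deposited scale the ratio of Itga2 to this partner chain was 0.44 higher in liver and that of Itga1 0.65 higher. Itga1 was below the background limit on every array, where RMA compresses differences, and Itgb1 was above it on every array. In both ratios every liver array stood above every spleen array. Itga6, a laminin-binding chain, differed by -0.08, and its ratio to Itgb1 was lower on every liver array, at -0.27. The exact permutation p was 0.1 for each of these 3 ratios, the smallest that 3 arrays against 3 allow (two-sided). It was 0.25 after adjustment over 10 chain pairs picked after the differences were known. The ratio of Itgav to Itgb3 had the same permutation p and adjusted p, and was lower on every liver array, at -0.29. The groups of the other pairs overlapped. The other laminin-binding chains, Itga3 at 0.01 and Itga7 at 0.05, were below the background limit on every array.

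Itga4, whose product directs lymphocytes to VCAM-1 and MAdCAM-1, read 10.06, 10.10 and 9.97 on liver arrays 2, 3 and 7 and 9.90, 9.93 and 9.95 on spleen arrays 4, 5 and 6. The groups did not overlap, but the margin between liver array 7 and spleen array 6 was small, and the difference of 0.12 had an interval of -0.11 to 0.35. Itgb7, its partner for MAdCAM-1, differed by 0.06 (interval -0.19 to 0.31). Itga9, a relative of Itga4 that binds VCAM-1 and tenascin, read 5.65, 5.72 and 5.71 in liver and 5.83, 6.14 and 5.85 in spleen. All liver arrays were lower, and the difference of -0.25 (interval -0.51 to 0.01) was -0.15 without spleen array 5. The gene was below the background limit on every array.

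Itgae encodes the alpha chain CD103 of αEβ7, which marks many epithelial-resident T cells and Treg and also a dendritic cell subset. It read 10.19, 10.25 and 9.79 on liver arrays 2, 3 and 7 and 9.83, 9.74 and 9.87 on spleen arrays 4, 5 and 6. Liver arrays 2 and 3 were above every spleen array and liver array 7 was within their range. The difference was 0.26 (interval -0.03 to 0.55). It was 0.41 without liver array 7, 0.17 without liver array 3 and 0.21 without liver array 2. The dendritic cell marker mean was likewise higher on liver arrays 2 and 3 than on liver array 7. The same array was the lowest liver array in 78.5% of all genes above the background limit on every array. The part of dendritic cells in the Itgae values was not tested.

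Itgal and Itgb2 encode the chains of LFA-1, the main T cell receptor for ICAM proteins. They differed by 0.01 (interval -0.25 to 0.27) and 0.05 (interval -0.18 to 0.28), with overlapping groups. Itgam, the alpha chain of Mac-1 on myeloid and NK cells, read 7.92, 7.90 and 7.41 on liver arrays 2, 3 and 7 and 7.78, 7.80 and 7.53 on spleen arrays 4, 5 and 6. Its spread within liver exceeded the difference between the organs, 0.03. Itgad, a further partner of Itgb2 known from macrophages, differed by 0.05 and was below the background limit on every array.

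Itgav and Itgb8 encode αvβ8, with which Treg release active TGF-beta from its latent form. Itgb8 read 8.78, 8.92 and 8.59 in liver and 8.96, 8.90 and 9.08 in spleen. Only liver array 3 reached into the spleen range, and the difference was -0.22 (interval -0.48 to 0.04), and -0.13 without liver array 7. Itgav differed by -0.03 (interval -0.27 to 0.20). Itgb3, the beta chain of the vitronectin receptor and of the platelet fibrinogen receptor, read 8.32, 8.45 and 8.07 in liver and 8.12, 8.07 and 7.89 in spleen. Its difference of 0.25 had an interval of -0.03 to 0.53, and liver array 7 lay within the spleen range. It was 0.16 without liver array 3. Itga2b, which pairs with Itgb3 on platelets, differed by -0.08 and was below the background limit throughout, as were 9 of 10 platelet and megakaryocyte markers, whose mean was 5.77 to 5.85 in liver and 5.67 to 6.11 in spleen. The RGD-binding chains Itga5, the fibronectin receptor chain, and Itga8 differed by -0.09 and -0.05, both below the background limit on every array. The epithelial and stromal beta chains Itgb4, Itgb5 and Itgb6 differed by -0.02 to -0.01 and were below the limit on every array.

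**Figure D3:**
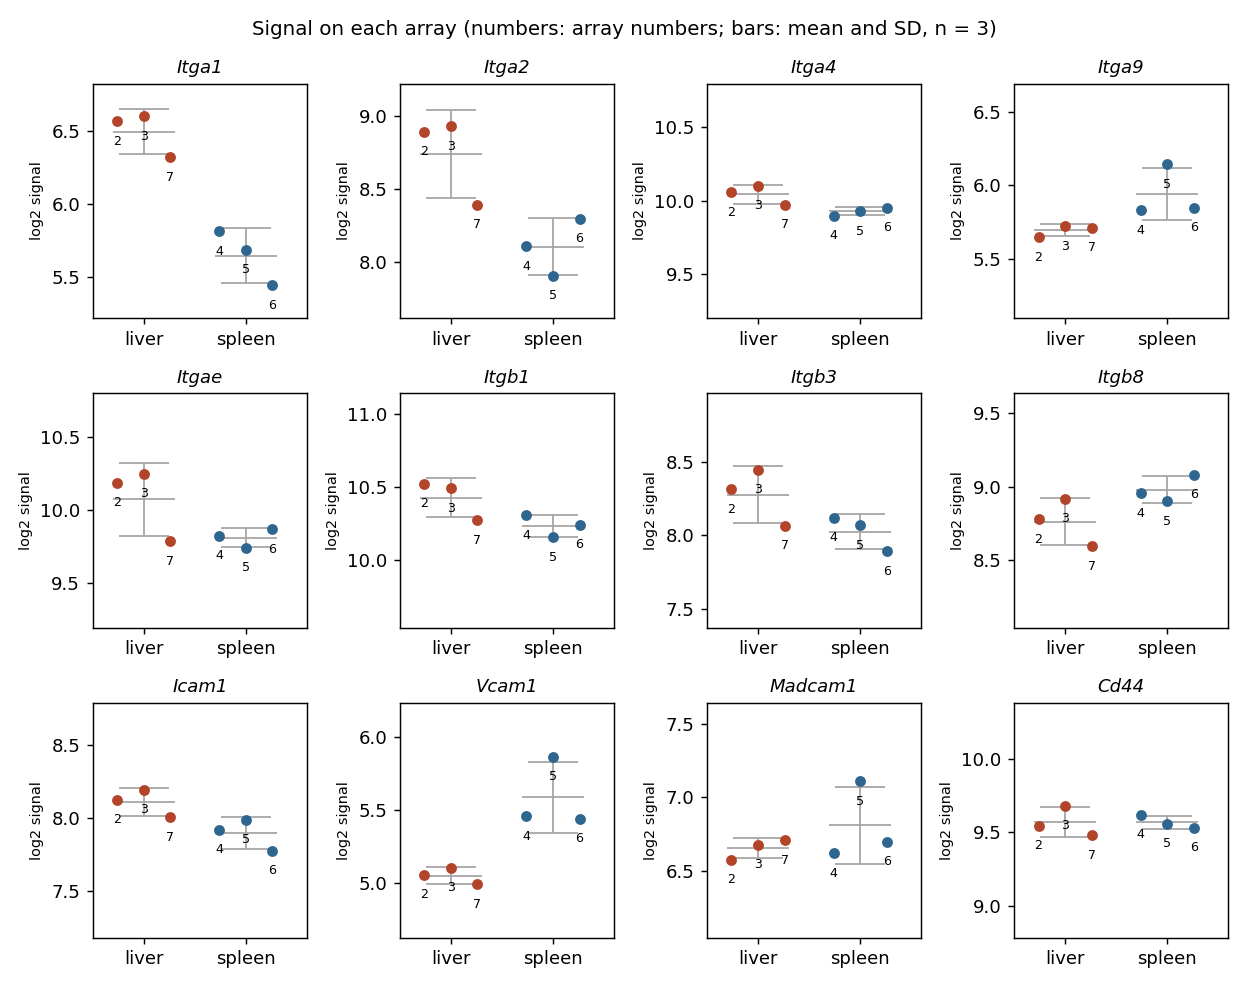
Log2 signal of 12 of the genes on each array (points, with array numbers; liver red, spleen blue), with the mean and SD of 3 arrays as bars and a vertical range of the same height in every panel. The organs separate in Itga1, Itga2, Itga4, Itga9, Icam1 and Vcam1, and in Itgae the liver array 7 lies among the spleen arrays.

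The selectin ligand Selplg was 10.27, 10.33 and 10.17 on liver arrays 2, 3 and 7 and 10.16, 10.26 and 10.10 on spleen arrays 4, 5 and 6, with a difference of 0.08 (interval -0.16 to 0.32). Cd44, which binds hyaluronan and is a marker of antigen-experienced T cells, read 9.55, 9.68 and 9.48 on liver arrays 2, 3 and 7 and 9.62, 9.56 and 9.53 on spleen arrays 4, 5 and 6. The groups overlapped, and the 95% confidence interval of the ratio of liver to spleen ran from 0.848 to 1.18. Sele and Selp, the selectins of activated endothelium and, for Selp, of platelets, differed by 0.04 and -0.12 and were below the background limit on every array.

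Vcam1, the ligand of α4β1 on activated endothelium and on macrophages of the spleen, read 5.06, 5.11 and 4.99 on liver arrays 2, 3 and 7 and 5.46, 5.86 and 5.44 on spleen arrays 4, 5 and 6 (TC0300002802.mm.1). All spleen arrays were higher, with array 5 the highest, and all 6 values were below the background limit. The difference was -0.53 (SE 0.13, interval -0.82 to -0.25, limma adjusted p = 0.365), and -0.40 without spleen array 5. The mean of 4 other markers of red pulp macrophages, Spic, Hmox1, Slc40a1 and Axl, was 5.80 to 5.87 in liver and 6.10 to 6.26 in spleen. Of these markers Spic fell in liver by 0.97 on the log2 scale (limma adjusted p = 0.0425), Hmox1 was lower on every liver array at -0.39, and Slc40a1 and Axl differed by -0.04 and 0.09. Of the 4 only Axl was above the background limit on any array. The part of macrophages in the Vcam1 values was not tested. The 12 endothelial markers, none above the limit on any array, had means of 5.45 to 5.51 in liver and 5.31 to 5.67 in spleen, and the 7 Kupffer cell markers, none above it either, had means of 5.59 to 5.71 and 5.48 to 5.81. The liver and spleen ranges also overlapped in the means of the monocyte and macrophage, neutrophil, fibroblast, cholangiocyte, hepatocyte and B cell lists. Among the 12 monocyte and macrophage markers Lyz2 at 1.39 (limma adjusted p = 0.0659), Ccr2 at 0.48 and Ly6c2 at 0.44 were higher on every liver array and had an unadjusted p under 0.05, as did Alb of the 10 hepatocyte markers at 0.47 and Ms4a1 of the 8 B cell markers at 0.38. All 10 hepatocyte markers and 7 of the 8 B cell markers, Alb and Ms4a1 among them, were not above the background limit on any array. The part of the cells of these lists in the members' values was not tested.

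Icam1, the ligand of LFA-1 that activated T cells also carry, read 8.12, 8.19 and 8.004 on liver arrays 2, 3 and 7 and 7.92, 7.99 and 7.77 on spleen arrays 4, 5 and 6. Liver array 7 stood above spleen array 5 by a small margin, so the groups did not overlap, and the difference of 0.21 had an interval of -0.03 to 0.46. Icam2, a further LFA-1 ligand of endothelium and lymphocytes, differed by 0.02. Madcam1, the gut vessel ligand of α4β7, differed by -0.16, and -0.00486 without spleen array 5, on which it read 7.11 against 6.58 to 6.71 on the 3 liver arrays. Madcam1 was below the background limit on every array.

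The dim and the bright genes varied along different arrays. Of the 17 genes below the background limit on every array, 15 read highest on spleen array 5, the array with the highest background rows. The exceptions were Itga1 and Sele, which were highest on liver array 3. Among all genes below the limit on every array, 62.4% were highest on spleen array 5. Of the 15 genes above the limit on every array only Itgav was highest on spleen array 5, and all 15 had their lowest liver value on liver array 7, as did 78.5% of all genes above the limit on every array. In 10 of the 15 liver array 3 was the highest of the 6 arrays, as it was in 36.0% of all genes above the limit on every array.

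**Figure D4:**
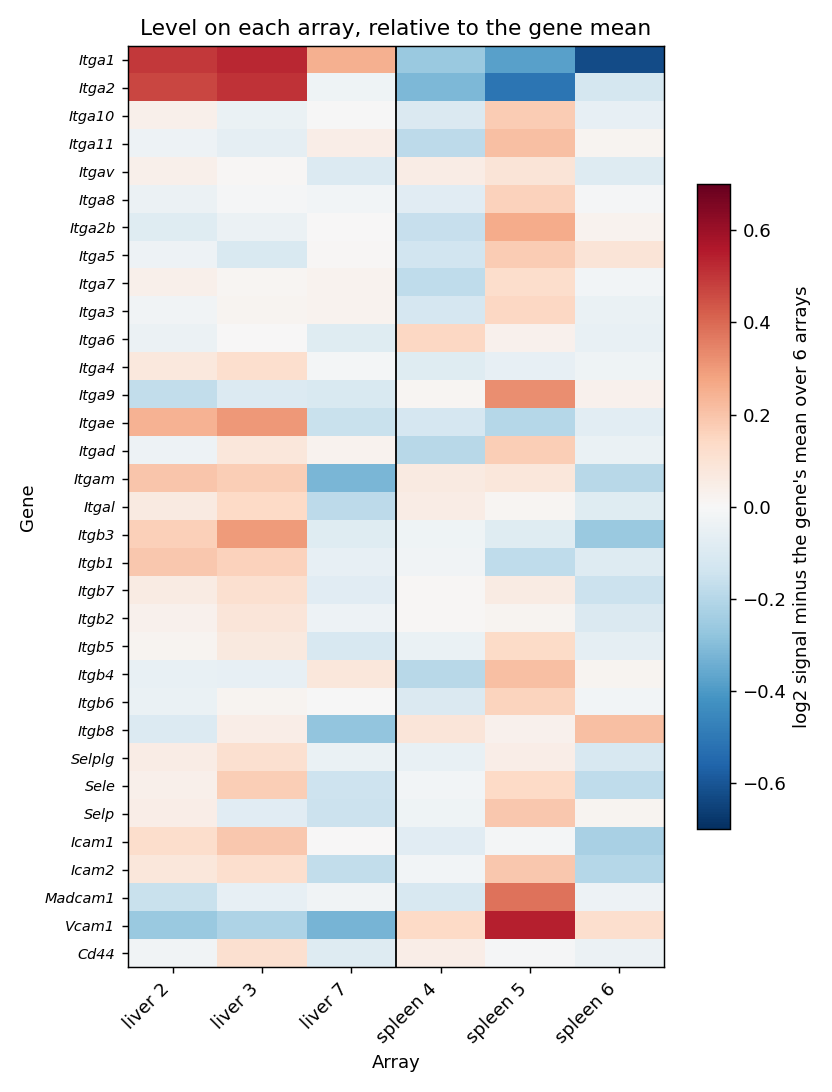
Log2 signal of the 33 genes on each array after subtraction of the gene's mean over the 6 arrays (colour), ordered by role, with liver arrays to the left of the line. Itga1 and Itga2 form the strongest liver excess, Vcam1 the strongest spleen excess, and many of the dim genes are raised on spleen array 5.

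The differences of the 3 genes with the largest shifts kept their sign in every fit. Itga1 was between 0.74 and 1.04, Itga2 between 0.53 and 0.81 and Vcam1 between -0.61 and -0.40 over the rescalings, filters, variance models and fits with 1 array left out that held them. Itga1 passed limma's adjusted threshold in 4 of 14 such fits, and Itga2 and Vcam1 each in 1, the fit with array weights, in which 9.09% of all genes passed.

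**Figure D5:**
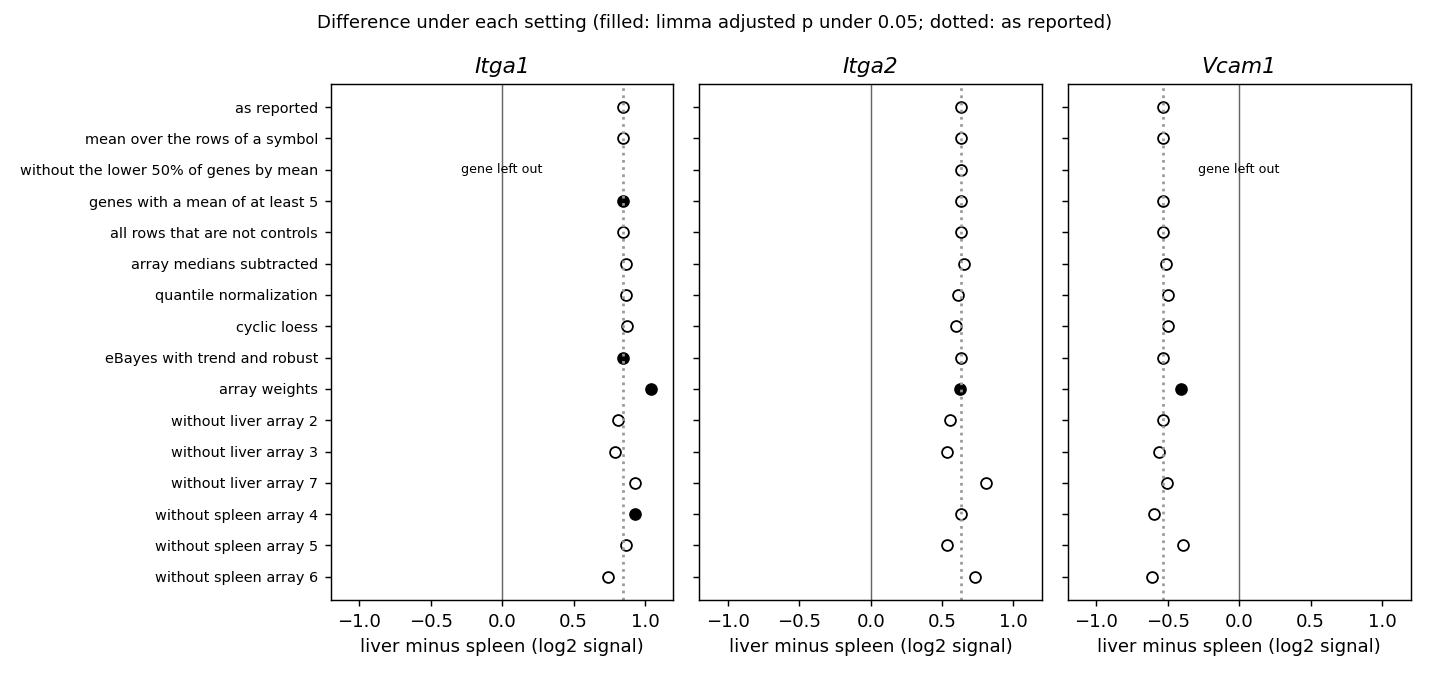
Difference between liver and spleen (horizontal axis, log2 signal) of Itga1, Itga2 and Vcam1 in the reported fit and under each alternative (rows), with filled points where the limma adjusted p was under 0.05. The points of Itga1 and Itga2 lie right of 0 and those of Vcam1 left of 0 in every row in which the gene was tested, and filled points are few.

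Other genes of adhesion were read from lists put together by hand. The first list held 30 genes that regulate integrin activation or link integrins to the cytoskeleton, such as talin, kindlins and Rap1. Of these none passed limma over all genes, none had an unadjusted p under 0.05 and none had groups that did not overlap. Their differences ran from -0.19 to 0.17, with a median of 0.01. Of 15 genes that build selectin ligands none passed, 2 had an unadjusted p under 0.05 (3.77% of all genes) and 3 had groups that did not overlap (6.19% of all genes). Those with the lower p were the sulfotransferase Chst2, at 7.58, 7.39 and 7.58 in liver and 7.20, 7.20 and 7.21 in spleen (difference 0.31, limma adjusted p = 0.856), and the sialyltransferase St3gal1 at -0.28. Of 25 other leukocyte adhesion molecules none passed, 3 had an unadjusted p under 0.05 and 4 had groups that did not overlap. Among them Itgax, the integrin alpha chain CD11c of dendritic cells, was at 6.46, 6.71 and 6.39 in liver and 5.97, 6.30 and 5.89 in spleen (difference 0.47, limma adjusted p = 0.591), below the background limit on every array. The adhesion receptor Cd96 was lower on every liver array at -0.35. Of 24 genes for matrix proteins, other integrin ligands and hyaluronan synthesis none passed and none had an unadjusted p under 0.05. Among these 24, 1 had groups that did not overlap, and 21 were not above the background limit on any array. The medians of the 4 lists were 0.01, 0.04, -0.02 and -0.01, beside -0.02 over all genes.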

How the data were processed

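The deposited values are log2 signals per transcript cluster, made by the authors with RMA (per the submitters' processing notes, in Affymetrix Expression Console). RMA corrects background, normalizes probes between arrays by quantiles and compresses differences of dim genes. The labels name the array Mouse Gene ST 2.0 and the column headers MTA-1_0, and the labels describe isolation both by a cell sorter and by magnetic beads. No source used here gives the genome build or the annotation release, and the only coordinates printed are those of RefSeq promoters (GRCm38.p6). Arrays were matched to samples by the number in header and title. The deposited value table held the same log2 numbers (largest difference 0).

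Of 72688 rows, 6732 were controls, 26355 had no symbol, 87 had several and 39514 had 1, which gave 38854 genes after the brightest row was kept for 526 symbols with several rows. Liver was compared with spleen by a two-sided limma fit over all genes (limma 3.58.1, R 4.3.3; lmFit, then eBayes), with Benjamini-Hochberg adjustment and a threshold of 0.05, and without covariates. Intervals are 95% confidence intervals of that fit. An exact permutation test of 1 gene on 3 arrays a group cannot give a p under 0.1, and the number of arrays limits the precision. The 33 genes, their roles and the marker and pathway lists were chosen with earlier results of these data known, so no list was tested. Outside the 33 genes, genes of the pathway lists were named where their unadjusted p was under 0.05 and their groups did not overlap. Markers were named as a check of the label, for lying below the background limit, for an unadjusted p under 0.05, or as all of a short list. Not every marker that met one of these was named. Chromosome 13 neighbours were named after values were seen. The fit was tested on simulated arrays. Alternatives were other scalings, filters, variance models and each array left out.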

Additional observations from a re-analysis of the deposited data

How the results depend on the processing

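The count of adhesion genes past limma's adjusted threshold was 0 in the reported fit, in which 3 genes had an unadjusted p under 0.05. It was 1, Itga1, when genes with a mean under 5 were left out (0.0759% of the genes kept passed) or when eBayes used a trend and robust variances (0.0695% of all genes). It was 8 with array weights, under which 9.09% of all genes passed. Leaving out 1 array gave 0 to 1 (0 to 0.0849% of all genes). With array medians subtracted, quantile normalization or cyclic loess the count was 0, as it was over all genes. Limma's adjusted p of Itga1 in these rescaled fits was 0.455, 0.238 and 0.276, in that order. Genes at an unadjusted p under 0.05 numbered 1 of 24 without the lower 50% by mean (5.58% of the genes kept). That filter removes Itga1 and Vcam1. Such genes numbered 5 with array medians subtracted (3.73% of all genes), 9 after quantile normalization (6.15%) and 8 after cyclic loess (6.25%). They numbered 14 with array weights (27.6%) and 3 to 6 with 1 array left out (2.49% to 5.97%). Genes whose groups do not overlap numbered 3 without the lower 50% (7.48% of the genes kept). They numbered 10 after quantile normalization and 11 after cyclic loess (11.1% of all genes in each). With 1 array left out they numbered 7 to 13 (8.52% to 20.1% of all genes), the highest without liver array 7 (19.8%). The median difference ran from -0.0356 to 0.0745. Itga1 stayed between 0.744 and 1.04, Itga2 between 0.535 and 0.805 and Vcam1 between -0.608 and -0.396. Over 15 settings 15 of 33 genes kept their sign in every fit that held them, and 18, none of which differed by more than 0.119, did not. By the mean of the background rows, a limit chosen after seeing the data, 33 genes and not 15 were above background on every array. No paired analysis was possible because the labels do not say whether a liver and a spleen array shared an animal. The cause of these changes was not tested.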
